A study of Mus musculus with 6 samples.

Results

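The 8 genes that encode the core enzymes of the mouse DNA methylation cycle (*Dnmt1*, *Uhrf1*, *Dnmt3a*, *Dnmt3b*, *Tet1*, *Tet2*, *Tet3* and *Tdg*) were followed by RNA-seq in fetal leg muscle of WT and *SYISL* KO mice. They were chosen by name, for a part in placing, keeping or removing 5-methylcytosine, out of 56262 genes in the count tables. Earlier results of these data were known when they were chosen. All 8 were among the 22071 genes with enough counts to be tested. The data held 3 WT and 3 KO leg muscle samples, all from embryonic day 18.5. *SYISL* is a long noncoding RNA expressed from within the *Synpo2* locus, and the KO mice lack it. The paper mated KO females with KO males, and used heterozygous parents in a later part. Neither it nor the sample titles state which cross gave these samples. If KO fetuses developed in KO dams, the genotype of the fetus cannot be told apart from that of its mother. The labels give no treatment, and name neither litter nor sex. They also do not say whether the replicates were separate animals, so p-values measure the spread between these samples, part of which may be technical.

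In mammals, a methyl group on the cytosine of a CpG pair is copied to the new strand after each round of replication by DNMT1, which UHRF1 brings to half-methylated sites. DNMT3A and DNMT3B place methyl groups on DNA that had none. TET enzymes oxidize 5-methylcytosine, using 2-oxoglutarate as a cosubstrate, and TDG cuts out the further oxidized bases so that repair can put back a plain cytosine. In skeletal muscle, members of this cycle are known to act when dividing myoblasts turn into fused fibers. RNA levels were measured here, and DNA methylation and protein levels were not.

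*Tet2* was the only one of the 8 genes whose level differed by more than 1.5-fold, and it was higher in KO. The sequences that bear on this measurement are shown first: the start region of *Tet2*, that of *Uhrf1*, one of the pair of genes with the largest falls, and the primer pair with which the study measured *Tet2* RNA by RT-qPCR. The start regions are taken from RefSeq (GRCm38.p6), reach from 250 bases before the transcription start to 50 bases after it, and have CpG pairs in capitals. The *Tet2* region lies at chr3:133544341-133544640 on the minus strand and the *Uhrf1* region at chr17:56303087-56303386 on the plus strand, the more upstream of the *Uhrf1* starts listed.
Tet2 start region: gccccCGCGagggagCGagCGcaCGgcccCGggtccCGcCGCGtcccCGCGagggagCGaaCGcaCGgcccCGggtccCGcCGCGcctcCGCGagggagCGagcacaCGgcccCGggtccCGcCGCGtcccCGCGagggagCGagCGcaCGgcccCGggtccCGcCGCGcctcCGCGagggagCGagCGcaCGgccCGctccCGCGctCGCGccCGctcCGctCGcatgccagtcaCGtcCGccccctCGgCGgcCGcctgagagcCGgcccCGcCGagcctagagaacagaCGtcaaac
Uhrf1 start region: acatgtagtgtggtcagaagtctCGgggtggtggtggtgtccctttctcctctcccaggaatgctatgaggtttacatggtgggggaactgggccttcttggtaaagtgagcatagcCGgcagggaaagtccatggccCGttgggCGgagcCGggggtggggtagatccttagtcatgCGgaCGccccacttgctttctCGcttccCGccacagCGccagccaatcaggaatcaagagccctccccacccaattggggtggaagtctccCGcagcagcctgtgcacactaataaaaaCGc
Tet2 RT-qPCR forward primer: cacccatccacacccttcacc
Tet2 RT-qPCR reverse primer: tctggaggcagctcccatgaa
The *Tet2* region held 57 CpG pairs in 300 bases, more than 99.85% of the 32851 start regions in the RefSeq table, whose median was 7. It was 81.3% G and C. The *Uhrf1* region held 12 CpG pairs, more than 60.4% of all start regions, and the second *Uhrf1* start (chr17:56304063-56304362) held 33, more than 91.4%. Start regions of the other members ranged from 2 CpG pairs at one of the *Dnmt1* starts to 47 at one of the *Dnmt3a* starts. These are counts of letters in the reference, and the methylation of these regions in the samples is not known. Both primers matched 4 of the 10 annotated *Tet2* transcripts (GENCODE M21, mm10). In the first of these they lay in the last exon (exon 11 of 11), within annotated coding sequence, at chr3:133467484-133467677. The product there was 194 bases long. The exon was not read for the other matched transcripts. That pair therefore reads a stretch of *Tet2* which only some annotated isoforms contain, whereas the counts here sum over every exon of the gene. The paper reports *Tet2* as higher in KO muscle by RNA-seq, and its RT-qPCR as giving the same result.

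The samples held 82054811 to 102233181 counts each, deposited as raw counts per gene, and levels are given as CPM, the counts of a gene set against the TMM-scaled total of its sample. Muscle fiber markers were present in every sample, as the tissue label states, but the genotypes also differed in markers of other tissues. Markers are counted as higher or lower by an edgeR adjusted p under 0.05, which 45% of all genes tested passed. The marker lists were chosen with earlier results of these data known. Summed over 14 keratinocyte markers, WT samples held 18625 to 27212 CPM and KO samples 1104 to 1241 CPM. All 14 were lower in KO and none was at 0 in all samples. Of 10 muscle fiber markers, 9 were higher in KO, with a summed level of 18875 to 21151 CPM in WT and 39868 to 47898 CPM in KO. All 8 red blood cell markers were lower (3948 to 5191 CPM against 548 to 669 CPM), and 7 of 8 macrophage markers were higher (246 to 262 CPM against 379 to 418 CPM). All 6 adipocyte markers were higher, each by more than 1.5-fold (105 to 137 CPM against 340 to 402 CPM), and of 7 chondrocyte markers 4 were lower and 2 higher (395 to 508 CPM against 355 to 358 CPM). Of 8 myogenic progenitor markers, 3 were lower and 2 higher, and the sums overlapped (481 to 503 CPM in WT against 464 to 491 CPM in KO). Higher in KO were also 6 of 7 fibroblast, 5 of 7 endothelial and 4 of 5 glia markers, with 0 lower in each list. In bulk tissue, fewer cells of a type and less RNA per cell cannot be told apart, and the part of tissue makeup in the results below was not tested. *Synpo2*, which hosts *SYISL*, was higher in the KO group (214 ± 18.9 CPM, n = 3) than in the WT group (136 ± 4.21 CPM, SD, n = 3). *SYISL* itself has no entry of that name in the annotation used and was not analysed here, so the knockout was not checked by its own RNA.

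**Figure D1:**
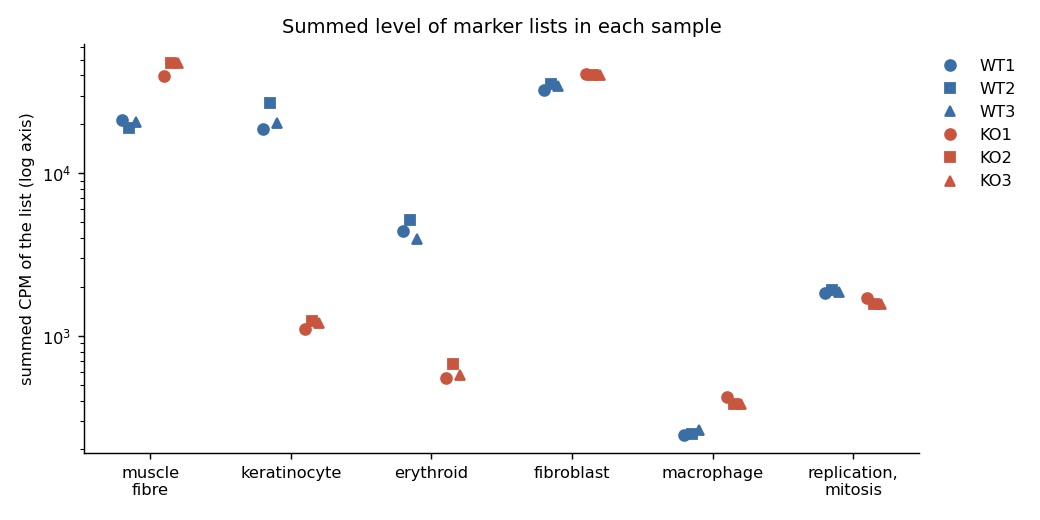
Summed level (CPM, log axis) of 6 marker lists in each of the 3 WT (blue) and 3 KO (red) samples, with a symbol for each replicate. Keratinocyte and red blood cell sums lie far lower in KO, muscle fiber sums lie at 39868 to 47898 CPM in KO against 18875 to 21151 CPM in WT, and the replication list lies slightly lower in KO.

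The genotypes were compared with the quasi-likelihood F-test of edgeR, with Benjamini-Hochberg adjustment over all 22071 genes. All 8 members passed an adjusted p of 0.05, 2 higher and 6 lower in KO, and for all 8 the WT and KO values did not overlap. Across all genes tested, 45% passed the same threshold (21.9% higher and 23.1% lower) and 55.9% had values that did not overlap (27.3% with KO above and 28.5% with KO below), so that passing it set no gene apart in these data. With a fold change over 1.5 as well, 1 of the 8 members was called, against 16.7% of all genes (8.31% higher and 8.39% lower). The median log2 fold change was -0.19 over the members and -0.0041 over all genes tested.

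**Figure D2:**
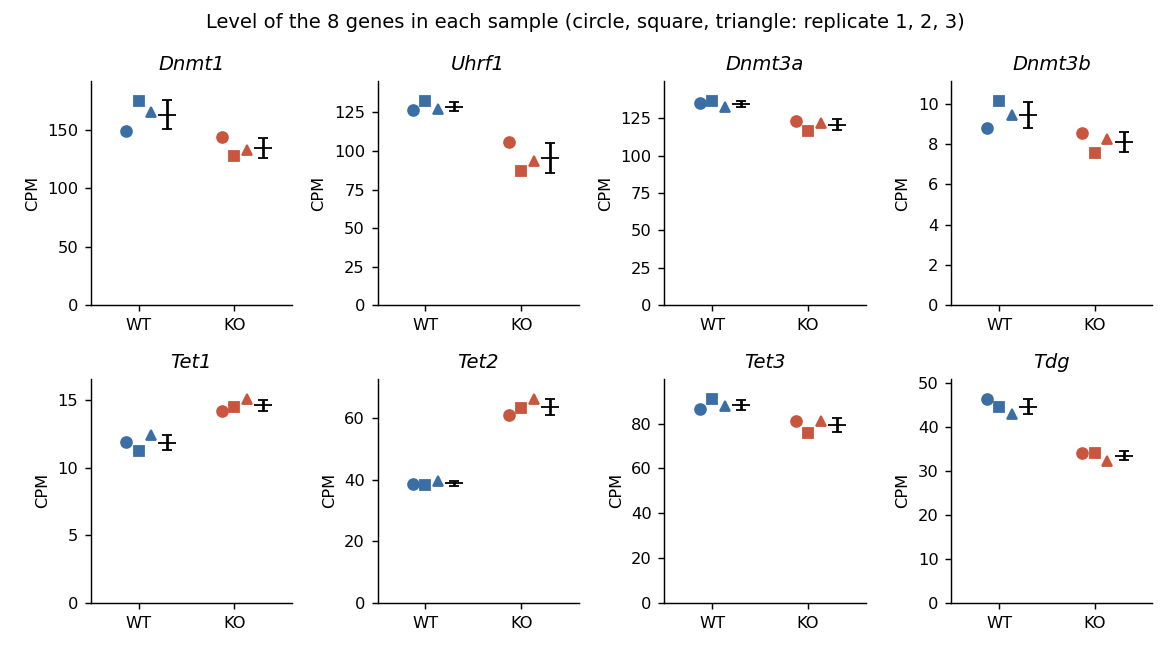
Level (CPM) of the 8 genes in each of the 3 WT (blue) and 3 KO (red) samples, with axes starting at 0 and black bars for mean ± SD. Tet1 and Tet2 lie higher in all KO samples, the other 6 genes lie lower, and the gap is widest for Tet2.

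The maintenance pair fell together. *Dnmt1* (chr9:20907209-20959888, minus strand), which encodes the enzyme that copies methylation, read 149.6, 175 and 166 CPM for WT and 144, 128 and 133 CPM for KO. The lowest WT sample (replicate 1) and the highest KO sample (replicate 1) lay close to each other without overlap. The WT mean was 163 ± 12.6 CPM and the KO mean 135 ± 8.61 CPM (SD, n = 3 each). This is a difference of -0.28 on the log2 scale (SE 0.065, 95% interval -0.42 to -0.13, edgeR adjusted p = 0.00717). *Uhrf1* (chr17:56303321-56323486, plus strand), whose protein reads half-methylated CpG pairs and recruits DNMT1, had WT levels of 127, 132 and 127 CPM and KO levels of 106, 87.0 and 93.3 CPM. The WT samples were nearly level and the KO samples were spread more widely, with replicate 1 the highest. Means were 129 ± 2.97 CPM in WT against 95.4 ± 9.63 CPM in KO, with a log2 fold change of -0.43 (SE 0.065, 95% interval -0.58 to -0.28, edgeR adjusted p = 5.49e-04). It fell by 25.9%, close to the fall of *Tdg* described below, and the order of these genes turned when WT replicate 2, WT replicate 3 or KO replicate 2 was left out. The ratio of *Uhrf1* to *Dnmt1*, per kb of exon, was lower in each KO sample than in each WT sample, with a mean log2 of 0.45 ± 0.088 in WT and 0.29 ± 0.053 in KO.

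Both de novo enzymes were lower in KO as well. *Dnmt3a* (chr12:3806007-3914443, plus strand) gave 135, 136 and 132 CPM in the WT group and 123, 117 and 122 CPM in the KO group. Both groups were tight and lay apart. Between the means of 135 ± 1.99 CPM (WT) and 121 ± 3.47 CPM (KO), the log2 fold change came to -0.16 (SE 0.038, edgeR adjusted p = 0.00817), and this call was lost with upper-quartile scaling (adjusted p = 0.0983). *Dnmt3b* (chr2:153649450-153687730, plus strand), the second de novo enzyme, was far less abundant, at 8.79, 10.1 and 9.41 CPM in WT and 8.52, 7.54 and 8.23 CPM in KO. The lowest WT value and the highest KO value, both of replicate 1, were almost the same. Its log2 fold change of -0.22 (SE 0.076, 95% interval -0.39 to -0.048) was the least certain of the 8. The edgeR adjusted p was 0.0410, and leaving out WT replicate 2 (adjusted p = 0.117), WT replicate 3 (0.101), KO replicate 2 (0.133) or KO replicate 3 (0.0898) took it past the threshold, as did upper-quartile scaling (0.134) and a replicate block (0.0910).

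The TET genes moved in different directions. *Tet2* (chr3:133463679-133545139, minus strand) had raw counts of 3669, 3157 and 4198 for WT and of 5736, 6042 and 6442 for KO. Scaled by depth, these are 38.8, 38.2 and 39.8 CPM against 61.2, 63.4 and 66.2 CPM. All KO samples lay well above all WT samples, and the gap between the genotypes was far wider than the spread within either. KO samples averaged 63.6 ± 2.52 CPM and WT samples 38.9 ± 0.794 CPM (SD, n = 3 each), which is 1.63-fold or a log2 fold change of 0.71 (SE 0.041, 95% interval 0.62 to 0.80, edgeR adjusted p = 1.15e-06). In size, its fold change exceeded that of 84.9% of all genes tested.

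*Tet1* (chr10:62804570-62908996, minus strand), which like *Tet3* encodes a TET enzyme with its own CpG-binding domain, gave 11.9, 11.3 and 12.4 CPM for WT and 14.2, 14.5 and 15.1 CPM for KO. Every KO value lay above every WT value. The log2 fold change was 0.30 (SE 0.061, 95% interval 0.16 to 0.44, edgeR adjusted p = 0.00312). *Tet3* (chr6:83362373-83459084, minus strand) was at 86.4, 90.9 and 87.8 CPM in WT and at 81.3, 75.7 and 81.3 CPM in KO, so the KO samples lay just below the WT samples. The log2 fold change was -0.15 (SE 0.042, 95% interval -0.25 to -0.059, edgeR adjusted p = 0.0144), and the call was lost with upper-quartile scaling (adjusted p = 0.128) and without KO replicate 2 (adjusted p = 0.0523).

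*Tdg* (chr10:82629828-82650799, plus strand), which encodes the glycosylase that removes oxidized methylcytosines, was at 46.2, 44.5 and 42.9 CPM in WT and at 33.9, 34.0 and 32.2 CPM in KO. The groups were tight and far apart. Means were 44.5 ± 1.69 CPM for WT and 33.4 ± 0.984 CPM for KO, and the log2 fold change was -0.42 (SE 0.044, 95% interval -0.51 to -0.32, edgeR adjusted p = 5.22e-05). Its reads are the hardest of the 8 to assign. Of the 50-base stretches in *Tdg* transcripts, 41.2% occur in transcripts of other genes, most of them the pseudogenes *Tdg-ps*, *Gm9855* and *Gm5597*. These held only 25 to 81 counts in any sample, against 3137 to 4525 for *Tdg*. Its exons also share 367 bases with those of *Glt8d2* on the opposite strand. Since no strand setting is stated, it is not known how reads there were assigned, or whether they were counted. *Glt8d2* moved the other way, with a log2 fold change of 0.18 (SE 0.048, edgeR adjusted p = 0.0131). Shared stretches were 15.4% for *Uhrf1*, mostly with the pseudogene *Gm5648* (80 to 141 counts), 9.81% for *Dnmt3b*, all with *Dnmt3c* (22 to 37 counts), and under 1% for the other members, with 0.0118% for *Tet2*.

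Set on a per-length scale, the 8 genes covered a wide range of levels. In WT, *Uhrf1* had the highest level at 30.2 ± 0.696 CPM per kb of exon, followed by *Dnmt1* (22.1 ± 1.71), *Tdg* (8.29 ± 0.315), *Dnmt3a* (8.09 ± 0.120), *Tet3* (5.29 ± 0.138), *Tet2* (2.31 ± 0.0471), *Dnmt3b* (1.85 ± 0.129) and *Tet1* (0.768 ± 0.0377). The WT ranges of *Tdg* (7.98 to 8.61) and *Dnmt3a* (7.96 to 8.19) overlapped, and no other neighbours in this order did. In KO the levels were 22.4 ± 2.26 for *Uhrf1*, 18.3 ± 1.17 for *Dnmt1*, 7.26 ± 0.209 for *Dnmt3a*, 6.21 ± 0.183 for *Tdg*, 4.76 ± 0.196 for *Tet3*, 3.77 ± 0.149 for *Tet2*, 1.59 ± 0.0986 for *Dnmt3b* and 0.946 ± 0.0279 for *Tet1*. *Dnmt3a* and *Tdg* thus changed places, and all *Dnmt3a* values in KO (7.02 to 7.41) lay above those of *Tdg*. These levels divide by the length of all annotated exons together, so a gene that uses short isoforms is understated. Of the 50-base stretches in transcripts, 41.2% for *Tdg* and 0.537% for *Dnmt3a* occur in other genes. How reads from such stretches were counted is not known, so the order of *Dnmt3a* and *Tdg* is uncertain.

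**Figure D3:**
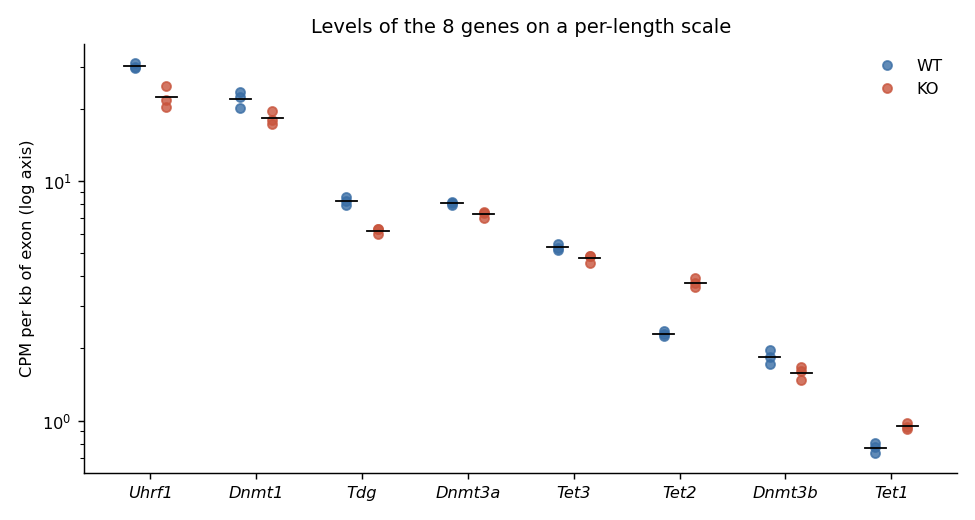
Level of the 8 genes in CPM per kb of exon (log axis), ordered by their WT mean, with points for the 3 WT (blue) and 3 KO (red) samples and a line at each mean. Uhrf1 and Dnmt1 lie highest and Tet1 lowest in both genotypes, and Tet2 moves up towards Tet3 in KO, at 3.77 against 4.76 CPM per kb.

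Ratios within a sample do not depend on how samples are scaled to each other. *Tet2* made up 27.9%, 26.8% and 28.0% of the summed TET level per kb of exon in WT and 38.5%, 40.7% and 40.2% in KO. The mean share rose by 12.2 percentage points, from 27.6% ± 0.636 to 39.8% ± 1.15 (SD, n = 3 each). *Tet3* remained the largest part, but its share dropped from 63.3% ± 1.12 to 50.2% ± 1.34. *Tet1* held 9.18% ± 0.481 in WT and 9.98% ± 0.199 in KO, without overlap. The split among the DNMT genes showed no such separation. *Dnmt1* held 69.0% ± 1.44 of the summed DNMT level in WT and 67.4% ± 0.833 in KO, *Dnmt3a* 25.3% ± 1.48 and 26.8% ± 0.798, and *Dnmt3b* 5.76% ± 0.0793 and 5.85% ± 0.134, each with overlapping samples. The summed TET level over the summed DNMT level had a log2 of -1.94 ± 0.067 in WT and -1.52 ± 0.077 in KO, a ratio 1.34 times as high. All KO samples lay above all WT samples on this measure. An exact two-sided permutation test of 3 samples against 3 cannot give a p below 0.1. These shares are given as descriptions, without a p, because the members were chosen with earlier results known.

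**Figure D4:**
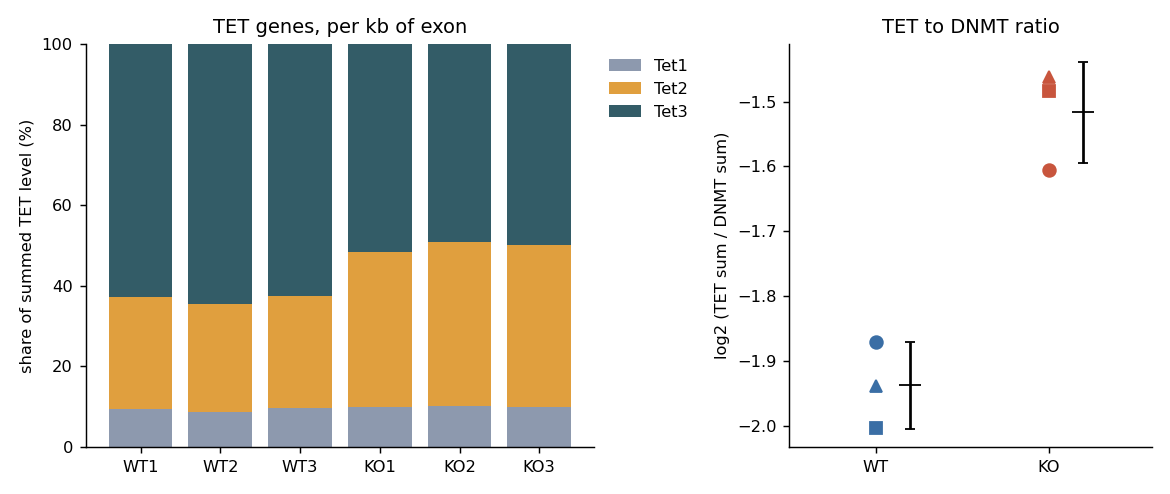
Left, share (%) of Tet1, Tet2 and Tet3 in the summed TET level per kb of exon in each sample, with bars reaching 100%. Right, log2 of the summed TET level over the summed DNMT level in each sample, with mean ± SD, on an axis that does not start at 0: Tet2 holds 38.5% to 40.7% in KO against 26.8% to 28.0% in WT, and the ratio is higher in all KO samples.

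Maintenance methylation is tied to DNA replication, so the members were set beside 18 genes of replication and mitosis. Of these, 16 fell in KO and 0 rose by edgeR adjusted p, against 23.1% and 21.9% of all genes tested. Also by unadjusted p, by DESeq2 and by limma-voom, 0 were higher. The number lower by adjusted p varied, with 11 for upper-quartile factors and 18 for library size alone. It was 14 without KO replicate 2 and 13 without KO replicate 3, and 0 were higher in each of these settings. The 18 genes had log2 fold changes from -0.38 (*Mcm5*) to -0.10 (*Aurkb*), with a median of -0.25. Their summed level was 1835 to 1906 CPM in WT and 1566 to 1707 CPM in KO. Divided by this sum in the same sample, *Dnmt1*, *Dnmt3a*, *Dnmt3b* and *Tet3* had WT and KO values that overlapped, with mean log2 differences of -0.06, 0.05, -0.0067 and 0.06. *Uhrf1* and *Tdg* stayed lower in each KO sample, by -0.22 and -0.20 on the log2 scale. *Tet1* and *Tet2* stayed higher, by 0.51 and 0.92. This ratio was chosen after the fold changes had been seen, and dividing by a sum that itself differs between the genotypes shows relative change only.

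The order of the samples within a genotype was compared across members. The same order was not counted over all genes tested, so it cannot be called particular to the members. Of the 6 members that were lower in KO, 5 had their highest WT value in replicate 2, and both members that were higher in KO had their lowest WT value there. That sample also had the highest keratinocyte and the lowest muscle fiber sum of the WT samples. In KO, 4 of the 6 lower members were highest and both higher members were lowest in replicate 1, the KO sample with the lowest muscle fiber sum and the highest replication sum. Its keratinocyte sum was the lowest of the KO samples, the reverse of WT replicate 2, while the replication sum was the highest of its genotype in both. Without WT replicate 2, the log2 fold change was -0.23 for *Dnmt1*, -0.41 for *Uhrf1*, 0.26 for *Tet1* and 0.69 for *Tet2*. Without KO replicate 1, these were -0.32, -0.51, 0.32 and 0.74. The part of tissue makeup in this pattern was not tested.

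Proteins that work with the methyltransferases mostly fell at the RNA level. Of 12 such genes, 11 were tested, and their median log2 fold change was -0.29. By edgeR adjusted p, 8 were lower and 1 was higher, against 23.1% and 21.9% of all genes tested. The largest falls that passed were in *Cdca7l* (-0.55) and *Cdca7* (-0.53), the latter a partner of the chromatin remodeler HELLS, whose own gene was at -0.29. *Usp7*, which encodes a deubiquitinase bound to DNMT1 and UHRF1, was at -0.35, *Trim28*, a corepressor that with *Zfp57* keeps imprinted loci methylated, at -0.32, and *Zfp57* itself at -0.20. The replication factors *Lig1* (-0.18) and *Pcna* (-0.14) fell by less. *Trdmt1*, which encodes a transfer RNA methyltransferase, was higher (0.32), a call that was lost without KO replicate 2. *Uhrf2*, the paralog of *Uhrf1*, measured 76.3 ± 2.17 CPM for WT and 78.1 ± 0.203 CPM for KO and did not pass (adjusted p = 0.483). None of the 11 was called with a fold change over 1.5 by edgeR with TMM, DESeq2 or limma-voom, whereas 2 were called lower with library size alone, 1 without WT replicate 1 and 1 without KO replicate 1. *Dnmt3l* was below 1 CPM in both genotypes and did not pass either.

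Genes that read methylated DNA did not move one way. Of 8 tested, 3 were higher and 1 was lower by edgeR adjusted p, against 21.9% and 23.1% of all genes tested. *Zbtb38* (log2 fold change 0.38) and *Zbtb4* (0.35) rose, *Zbtb33*, which encodes Kaiso, fell (-0.26), and *Mbd1*, *Mbd2*, *Mbd3* and *Mbd4* did not pass. The list's median was -0.03, and 0.04 with upper-quartile scaling.

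Base excision repair completes demethylation after TDG. In a list of 17 TET partners and repair genes, the median log2 fold change was -0.13. Of these, 9 were lower and 4 higher by edgeR adjusted p, against 23.1% and 21.9% of all genes tested. The split depended on scaling, with 5 lower and 6 higher for upper-quartile factors and 9 lower and 1 higher for library size alone. It also depended on single samples, with 8 lower and 1 higher without KO replicate 2 and 9 lower and 2 higher without WT replicate 3. *Polb*, the polymerase that fills the gap left by a removed base, had the largest fall of the list, with 36.0 ± 2.70 CPM for WT and 24.9 ± 1.51 CPM for KO (-0.53). The ligase gene *Lig3* was at -0.42 and the endonuclease gene *Apex1* at -0.34, while *Parp1* and *Xrcc1*, whose products gather the repair complex, were at -0.17 and -0.13. Among the glycosylase genes, *Ung* (-0.33) and *Smug1* (-0.18) fell and *Neil3* rose (0.21). *Neil2* also fell (-0.42, SE 0.14, edgeR adjusted p = 0.0371), but from a low level of 0.992 CPM in WT to 0.741 CPM in KO. *Ogt*, whose product binds TET2 and TET3, rose slightly (0.11), as did *Cxxc5* (0.15). *Cxxc4*, which lies within 1 Mb of *Tet2* on chromosome 3 and encodes a DNA-binding partner of TET2, did not pass (-0.09, edgeR adjusted p = 0.313).

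Among 15 genes that supply the methyl donor and the TET cosubstrate, the median log2 fold change was 0.16. In this list, 8 were higher and 1 was lower by edgeR adjusted p, against 21.9% and 23.1% of all genes tested. *Idh3a*, which encodes the catalytic subunit of the mitochondrial isocitrate dehydrogenase that makes 2-oxoglutarate, went from 120 ± 10.1 to 235 ± 26.4 CPM (0.97), and its partner subunit *Idh3g* from 113 ± 2.39 to 172 ± 16.3 CPM (0.61). These were the only genes of the pathway lists, apart from *Tet2*, that were called with a fold change over 1.5. With library size alone 4 pathway genes were called in this way, and without WT replicate 1 there were 5. *Idh3g* was under 1.5-fold with library size alone (0.54), without KO replicate 2 (0.56) and without KO replicate 3 (0.58). *Idh3b* (0.47), *Idh2* (0.44) and *Idh1* (0.22) rose as well. For the methyl donor, *Mat2a* (0.16) and *Mat2b* (0.18), the subunits of the S-adenosylmethionine synthetase, rose, and the mitochondrial serine hydroxymethyltransferase gene *Shmt2* fell (-0.34). Muscle fiber markers rose beside the *Idh3* genes, and their part in this was not tested.

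Germline genes that somatic cells hold silent by promoter methylation were read as an outcome of the cycle at the RNA level. Of 14 such genes, only 7 had enough counts to be tested, and each tested gene had a mean under 1 CPM in both genotypes. By edgeR 0 of the 7 passed an adjusted p of 0.05 and 0 had an unadjusted p under 0.05. DESeq2 and limma-voom also called 0, with 0 and 1 genes at an unadjusted p under 0.05. The 14 together summed to 2.90 to 4.36 CPM in WT and 2.94 to 3.66 CPM in KO. A change in these genes was thus not detectable here, and leaving out WT replicate 1, which had the highest sum, gave 1 gene called higher and 1 called lower.

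**Figure D5:**
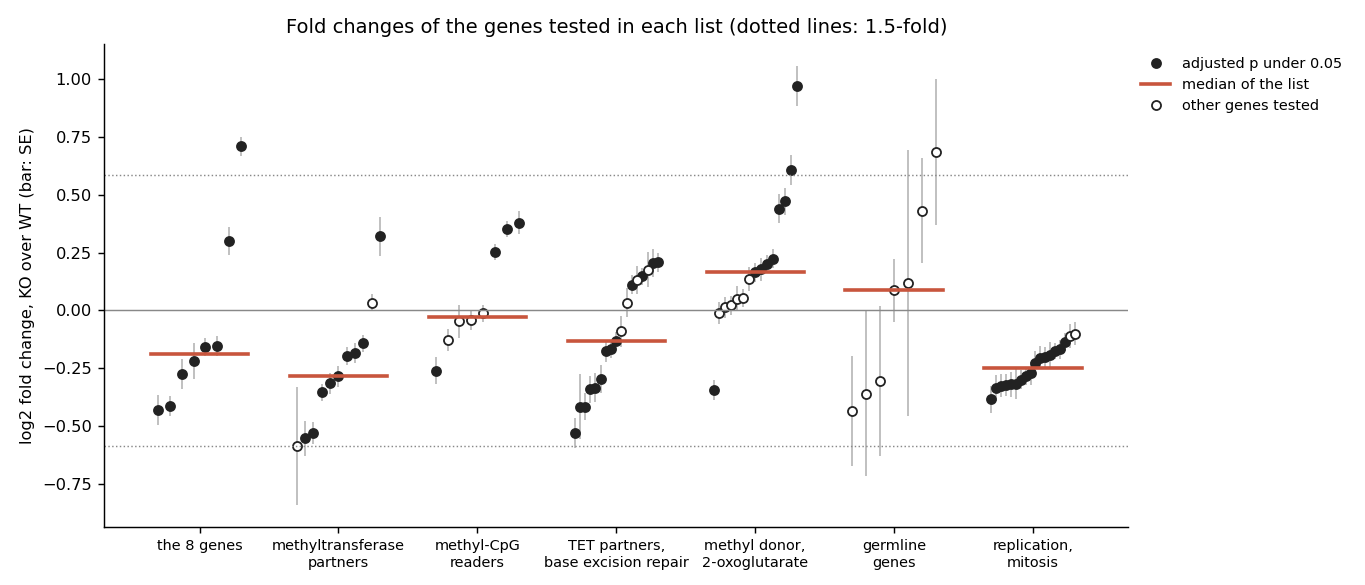
Log2 fold change (KO over WT, bars show SE) of each tested gene in the 8 members and 6 pathway lists, with filled points for an edgeR adjusted p under 0.05, red lines for list medians and dotted lines at 1.5-fold. Tet2 at 0.71, Idh3a at 0.97 and Idh3g at 0.61 are the filled points beyond 1.5-fold, and the replication list lies below 0 throughout.

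The neighbours of *Tet2* on chromosome 3 were also read. Within 1 Mb on either side of the gene, 12 other genes were tested, and their median log2 fold change was 0.018. By edgeR adjusted p, 2 were higher and 2 lower, against 45% of all genes tested in either direction, 6 had an unadjusted p under 0.05, and 0 were called with a fold change over 1.5 (also 0 by DESeq2 and limma-voom). Leaving out WT replicate 2 gave 1 such call. The counts by adjusted p varied, with 3 higher and 0 lower for upper-quartile factors, 2 higher and 4 lower for library size alone, and 1 higher and 0 lower without KO replicate 2 or without KO replicate 3. *Synpo2*, which holds *SYISL*, lies on the same chromosome, 10.23 Mb from *Tet2*.

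Over the 6 samples, the genes whose profile lay closest to that of *Tet2* were *Galnt17* (52.0 CPM in WT and 86.3 CPM in KO), *Ank1* (126 and 209 CPM) and *Dnajc12* (3.88 and 6.24 CPM). Likeness was the Euclidean distance between mean-centred log2 CPM, which was 0.048, 0.050 and 0.054 for these genes, among 11838 protein-coding genes with a mean of at least 5 CPM. *Ank1* encodes an ankyrin of the red blood cell membrane and, as a short form, of the muscle sarcoplasmic reticulum. The genes closest to *Dnmt1* were *Fer1l5* (0.049), *Mast3* (0.056) and *Ddx54* (0.058), with log2 fold changes of -0.26, -0.24 and -0.26 against -0.28 for *Dnmt1*.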

How the data were processed

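Members, pathway lists and marker lists were chosen with earlier results of these data known. RNA-seq of leg muscle from 3 WT and 3 KO samples was used. Per the labels and methods, the authors trimmed 150 bp paired-end reads with Trim Galore 0.6.6, mapped them to mm10 with HISAT2 2.2.1 and counted them per gene with featureCounts 2.0.1. These deposited counts are raw. The sources used here give no annotation, no strand setting and no word on whether pairs were counted once. Tables per sample and of the whole series had 0 differing values. GENCODE M21 held 55227 of the IDs and lacked 1035.

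Counts were fitted in R 4.3.3 with edgeR 4.0.16 (filterByExpr, TMM, quasi-likelihood F-test on genotype alone), with Benjamini-Hochberg adjustment over 22071 genes. Calls needed an adjusted p below 0.05 together with a fold change above 1.5. SE is the log2 fold change over the square root of F. Samples of a genotype differed beyond counting noise (chi-square per gene, mean over genes, 5.17 to 35.5). Named genes are the 8 members, list genes past the call threshold, other list genes beside these, and the 3 genes nearest to *Tet2* and to *Dnmt1*. Other genes (neighbours, near copies, *Synpo2*) were chosen after their values were seen. Single values of some list genes are not reported here. Planned exact tests of shares are not printed, since members were chosen with results known. Before use, the tests were run on simulated counts with few changed genes, each changed by more than any member was here. Smaller changes were not covered. Alternatives were RLE, upper-quartile and library size scaling, DESeq2 1.42.0, limma-voom 3.58.1, other filters and thresholds, a replicate block and leaving out each sample.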

Additional observations from a re-analysis of the deposited data

How the results depend on the processing

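Over 14 alternatives, each of the 8 members kept its direction. *Dnmt1*, *Uhrf1*, *Tet1*, *Tet2* and *Tdg* passed an adjusted p of 0.05 in all 14, *Dnmt3a* in 13, *Tet3* in 12 and *Dnmt3b* in 8. *Tet2* was past 1.5-fold in all 14 (log2 fold change 0.64 to 0.78), and no other member was in any. Upper-quartile factors left 5 of 8 members past the adjusted p, with 6077 genes higher and 3719 lower against 4838 and 5098 with TMM, and library size alone gave 3730 and 6475. Scaling moved the median of all genes by less than 0.1 on the log2 scale. Genes changed numbered 3687, and 2043 with a fold change over 2 and 9936 with no fold threshold. Leaving out 1 sample gave 3351 to 3877 changed genes, 6 to 8 members and 43 to 52 pathway genes past the adjusted p, a *Tet2* share difference of 11.8 to 12.9 points, a *Dnmt3a* share difference of 0.946 to 2.33 points and a TET to DNMT log2 difference of 0.39 to 0.46. Counts without length gave 12.4 points, 1.94 points and 0.40. Samples with the same number did not deviate together (correlations of -0.20, -0.13 and 0.05), so numbers were not taken as pairs. A replicate block gave 3521 changed genes and 7 members past the adjusted p, without *Dnmt3b* (adjusted p = 0.0910). The germline median of 0.09 was -0.16 with DESeq2, -0.16 with no filter and -0.31 with at least 10 counts in every sample, and it was -0.22 to 0.12 when 1 sample was left out, below 0 in all of these but the one without WT replicate 1. The cause was not tested. *Dnmt3b* and *Tet1* rest on the fewest counts of the 8, at 719 to 1468 per sample.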
